A study of Mus musculus with 48 samples.

Results

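The hair follicle growth regulators examined here are 10 genes of the hair matrix and the hair cycle, namely the signals Shh, Fgf5, Fgf18 and Bmp4, the receptor Lgr5, and the transcription factors Lef1, Foxn1, Dlx3, Gata3 and Msx2. They were looked up by gene symbol in the probe annotation of the array. Of the 10 genes, 9 had a probeset, each had 1 probeset, and all 9 passed the filter on low values, among 15320 named genes that passed it and 19147 that were on the array. Msx2 found no probeset and was not analysed here.

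RNA of skin, labelled as dorsal in all samples while the methods name biopsies of the back, the belly or both, was measured in 48 mice, with 1 array per mouse, to look for markers of skin effects of inhibitors of DGAT1, an enzyme that makes triglyceride. All mice were C57BL/6, labelled as 8 weeks old, and per the methods male, obese on a high-fat diet and dosed by mouth for 14 days. Study 1 had Cpd2, Cpd1 and vehicle groups of 8 mice, Study 2 had Cpd2, Cpd6 and vehicle groups of 4 mice, and Study 4 had Cpd6, Cpd18 and vehicle groups of 4 mice. Cpd2 and Cpd6 were the compounds described as causing sebaceous gland atrophy, and Cpd1 and Cpd18 as leaving the glands normal. The methods give 30 mg/kg where no other dose is stated, and 3 mg/kg for Cpd1 beside the histology, so Cpd2 and Cpd1 may not have been matched in dose. The labels give no animal, cage or batch number, and each array was taken as 1 mouse.

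A hair follicle passes through growth (anagen), regression (catagen) and rest (telogen), and in anagen a matrix of dividing cells around the dermal papilla makes the hair shaft and the inner root sheath. Shh, Wnt signals acting through Lef1, and BMP signals from the mesenchyme direct the matrix cells, and Foxn1, Dlx3, Gata3 and Msx2 control their differentiation into shaft and sheath. Fgf5 is known for ending anagen, Fgf18 for holding follicles in telogen, and Lgr5, a receptor for R-spondins, marks stem cells of the bulge and hair germ.

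The bases upstream of the start are shown for 4 members, because Fgf5, Lef1 and Foxn1 varied together between mice, and Fgf18 had negative r with them over all mice but not in Study 4. Each run is the 250 bases before a RefSeq start in GRCm38.p6, written 5′ to 3′ on the strand of the gene, with matches to the motifs named after them in capitals. Fgf5 (chr5:98253934-98254183, plus strand), Lef1 (the fourth of 4 annotated starts, chr3:131156044-131156293, plus strand), Foxn1 (chr11:78386609-78386858, minus strand) and Fgf18 (chr11:33147401-33147650, minus strand) read:
Fgf5: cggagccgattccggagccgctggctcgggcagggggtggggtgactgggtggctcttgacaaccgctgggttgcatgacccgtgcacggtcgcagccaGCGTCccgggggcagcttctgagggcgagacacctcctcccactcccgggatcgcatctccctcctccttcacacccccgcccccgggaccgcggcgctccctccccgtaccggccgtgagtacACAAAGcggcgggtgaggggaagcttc
Lef1: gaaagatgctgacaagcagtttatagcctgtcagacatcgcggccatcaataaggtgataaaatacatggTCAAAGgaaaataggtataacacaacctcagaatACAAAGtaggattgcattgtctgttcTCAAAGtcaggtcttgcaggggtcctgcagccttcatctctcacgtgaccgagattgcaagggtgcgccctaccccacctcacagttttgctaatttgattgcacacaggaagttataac
Foxn1: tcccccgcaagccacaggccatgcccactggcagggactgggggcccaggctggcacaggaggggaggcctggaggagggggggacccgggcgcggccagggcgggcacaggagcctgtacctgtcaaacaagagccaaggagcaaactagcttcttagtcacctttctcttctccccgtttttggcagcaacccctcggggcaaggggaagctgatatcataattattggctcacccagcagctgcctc
Fgf18: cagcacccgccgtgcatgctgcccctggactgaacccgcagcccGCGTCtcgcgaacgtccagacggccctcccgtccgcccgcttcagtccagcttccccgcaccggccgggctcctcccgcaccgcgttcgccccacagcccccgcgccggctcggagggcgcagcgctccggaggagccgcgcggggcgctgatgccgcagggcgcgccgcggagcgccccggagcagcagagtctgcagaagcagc

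Letters were searched on both strands of the windows of 7 members, which had 10 annotated starts among them. Shh, Dlx3 and Lgr5 had no window and are named only. The LEF1/TCF letters CTTTGA or CTTTGT occurred once before the Fgf5 start, from base 27 to base 22 upstream. They also occurred at 3 places before the Lef1 start shown, which lies inside the gene (chr3:131110297-131224357). The other Lef1 windows, including that of the first start, held none of these letters. The letters occurred in 27.6% of 32851 windows of that length. The FOXN1 letters GACGC, found in 22.6% of windows, occurred once before Fgf5 and once before Fgf18. They were also found before the first and the second Lef1 start, whose windows overlap, before Gata3, and at 2 places before Msx2. The GLI letters GACCACCCA (0.225% of windows), the MSX and DLX letters TAATTG (7.17%) and the GATA letters AGATAA (9.99%) were in none of the 10 windows. The Foxn1 and Bmp4 windows, and 1 Lef1 window not shown, held none of the letters searched. All matches in the runs shown lie on the strand opposite to the gene, so the capitals are the reverse complements of the motif letters. A match describes the letters only.

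Values are base 2 logarithms of RMA intensities, in which 1 unit is a doubling. The 28789 probesets tested had a mean over the 48 mice above 2.93, below which the lowest 25% of probesets lay. Array medians were 26.4 to 30.8 on the linear scale, and correlations between arrays were 0.946 to 0.996. In Study 1, all 15 skeletal muscle markers were lower with Cpd2 than with vehicle. Their mean ranged between 6.01 and 12.47 in Cpd2 mice and between 10.82 and 12.68 in vehicle mice. Of the members, Gata3 averaged 11.21 over the 48 mice, Bmp4 9.46, Dlx3 9.46, Lgr5 8.65, Fgf18 7.31, Shh 5.53, Foxn1 4.67, Fgf5 4.17 and Lef1 3.95. These levels cannot be ranked between genes, since each comes from a different probeset. In bulk skin, fewer cells of a type and less RNA per cell cannot be told apart.

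Relative to vehicle of the same study, Shh and Fgf5 were lower with Cpd6 in Study 4, Gata3 was higher with Cpd2 in Study 1, and no other member passed the test in any of the 6 comparisons. In RefSeq on GRCm38.p6, Shh lies at chr5:28456840-28467101, Fgf5 at chr5:98254184-98277033 and Gata3 at chr2:9857078-9887953. A member was called at an adjusted p under 0.05 (limma, Benjamini-Hochberg over all 28789 probesets). With Cpd6 in Study 4, 2 of 9 members were called, both lower, against 10.7% of all probesets called and 6.17% called lower. With Cpd2 in Study 1, 1 of 9 was called, higher, against 13.1% called and 7.09% called higher.

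No member was called with Cpd6 in Study 2 (0.379% of probesets called, 5 members at an unadjusted p under 0.05), with Cpd2 in Study 2 (0.129%, 5 members), with Cpd1 in Study 1 (0.327%, 2 members) or with Cpd18 in Study 4 (0.00347%, 1 member). These percentages are of probesets at an adjusted p under 0.05, so the member counts at an unadjusted p cannot be set against them. The share of all probesets at an unadjusted p under 0.05 was not counted, here or in the paragraphs below. The methods' t-test with the same adjustment called 0 members in those 4 comparisons too. In sign, 8 of 9 members were below vehicle with Cpd2 in Study 2 and with Cpd6 in Study 4, and 7 of 9 with Cpd6 in Study 2 and with Cpd18 in Study 4. In Study 1, 4 of 9 were below vehicle with Cpd2 and 2 of 9 with Cpd1. The median log2 fold change of the members was -0.81 with Cpd6 in Study 4, -0.50 with Cpd6 in Study 2 and -0.70 with Cpd2 in Study 2, beside medians of 0.012, 0.023 and 0.018 over all tested probesets. It was -0.26 with Cpd18, 0.11 with Cpd2 in Study 1 and 0.19 with Cpd1, beside 0.0064, 0.041 and -0.0025.

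**Figure D1:**
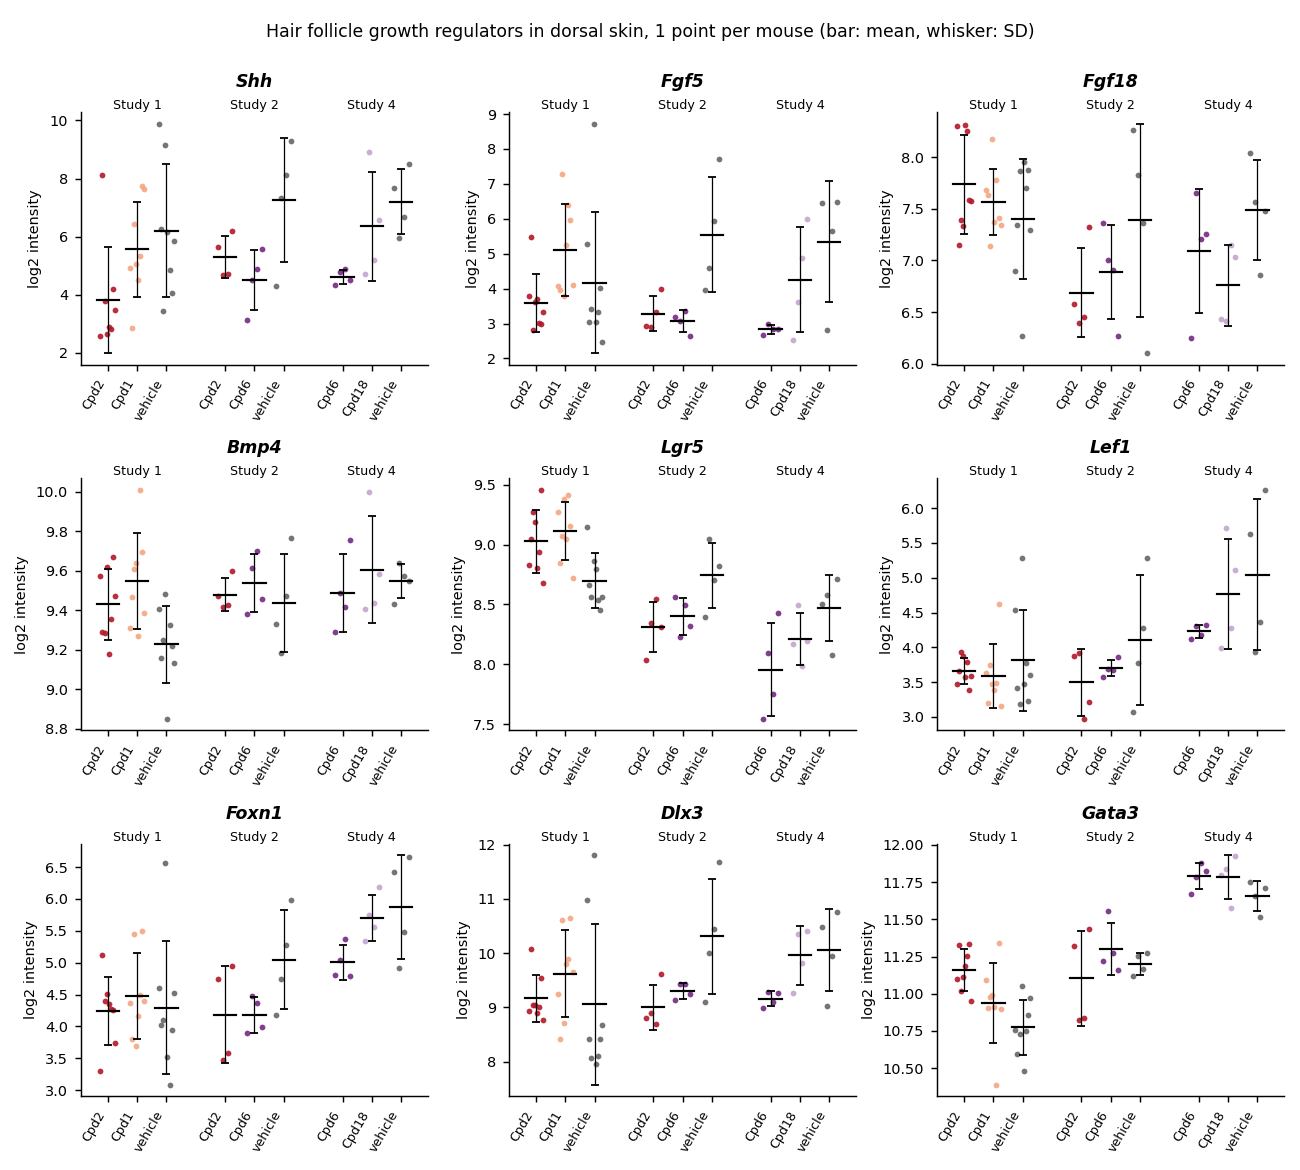
Log2 intensity of the 9 measured members (vertical axes, a separate scale per gene) in the 9 groups, with 1 point per mouse, a bar at the group mean and a whisker of 1 SD. Shh and Fgf5 in the Cpd6 mice of Study 4 lie in narrow bands, at 4.34 to 4.88 and 2.67 to 2.99, while their vehicle mice spread over 5.95 to 8.52 and 2.80 to 6.49.

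Shh, the hedgehog ligand that matrix cells secrete in anagen, had the largest difference from vehicle of the 9 members in 3 of the 6 comparisons, with Cpd6 in both studies and with Cpd2 in Study 1. Fgf5 had the largest in the other 3. In Study 4 the 4 Cpd6 mice had 4.34, 4.77, 4.88 and 4.49, and the 4 vehicle mice had 7.67, 5.95, 6.67 and 8.52. Every Cpd6 mouse was below every vehicle mouse. The difference was -2.58 (SE 0.71, 95% interval -4.09 to -1.08), 5.99-fold lower, with an adjusted p of 0.0329. The call was lost in 1 fit over all 48 arrays (adjusted p = 0.219), with the methods' t-test (0.0590), and when any of the 4 Cpd6 mice or vehicle replicate 1 or 4 was left out (adjusted p of 0.0591 to 0.101), with differences of -3.00 to -2.15 over all 8 omissions.

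In Study 2, Shh was at 3.12, 4.50, 4.87 and 5.56 in Cpd6 mice, at 5.64, 4.68, 4.72 and 6.18 in Cpd2 mice, and at 4.32, 7.33, 8.13 and 9.31 in vehicle mice. Vehicle replicates 2, 3 and 4 were above all treated mice, and vehicle replicate 1 lay among them. Shh differed by -2.76 with Cpd6 (SE 0.80, adjusted p = 0.160) and by -1.97 with Cpd2 (SE 0.80, adjusted p = 0.584), and neither passed the test. Without vehicle replicate 1 the differences were -3.74 with Cpd6 (adjusted p = 0.00322) and -2.95 with Cpd2 (adjusted p = 0.0204), and both passed.

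In Study 1, Shh had a lowest value of 2.59, a median of 3.18 and a highest of 8.11 in Cpd2 mice, 2.84, 5.19 and 7.75 in Cpd1 mice, and 3.44, 6.00 and 9.88 in vehicle mice. The groups overlapped, and 1 Cpd2 mouse, replicate 2, stood apart from the other 7, which were at 4.20 or less. Shh was -2.39 below vehicle with Cpd2 (SE 0.88, adjusted p = 0.0746) and passed the test without Cpd2 replicate 2 (-3.00, adjusted p = 0.0145), without vehicle replicate 3 (adjusted p = 0.0388) or 7 (0.0495), and in 1 fit over all arrays (0.0307). The Cpd1 difference was smaller than its SE.

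Over all 9 groups, mean Shh was highest in the vehicle mice of Study 2 (7.27 ± 2.13, SD, n = 4) and Study 4 (7.20 ± 1.12, n = 4), followed by Cpd18 mice (6.35 ± 1.88, n = 4) and the vehicle mice of Study 1 (6.20 ± 2.28, n = 8). It was lowest in the Cpd2 mice of Study 1 (3.82 ± 1.83, n = 8), after the Cpd6 mice of Study 2 (4.51 ± 1.03, n = 4) and Study 4 (4.62 ± 0.25, n = 4). No 2 neighbours in that order differed by more than the larger of their SDs.

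Fgf5, the fibroblast growth factor whose loss lengthens hair in mice, was near the low end of the scale in most Cpd2 and Cpd6 mice. Fgf5 was as low in most vehicle mice of Study 1 (median 3.37). In Study 4 it had 2.67, 2.99, 2.85 and 2.84 in Cpd6 mice, 2.53, 3.63, 4.88 and 6.00 in Cpd18 mice, and 6.45, 2.80, 5.64 and 6.49 in vehicle mice. Cpd6 and vehicle mice overlapped through vehicle replicate 2 alone. Fgf5 was lower with Cpd6 by -2.51 (SE 0.74, 95% interval -4.09 to -0.93, adjusted p = 0.0433), a 5.70-fold difference. The call was lost in every omission of 1 mouse except that of vehicle replicate 2 (adjusted p of 0.0739 to 0.124 in the 7 others), in 1 fit over all arrays (0.116) and with the methods' t-test (0.142). The Cpd6 values lay around 2.93, below which probesets were left out as low, so the fold may understate the difference.

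In Study 2, Fgf5 was at 3.18, 3.07, 3.37 and 2.64 in Cpd6 mice, at 2.92, 2.91, 3.32 and 3.98 in Cpd2 mice, and at 3.95, 4.60, 5.94 and 7.70 in vehicle mice. All Cpd6 mice were below all vehicle mice, and the highest Cpd2 mouse was 0.03 above the lowest vehicle mouse. Fgf5 differed by -2.48 with Cpd6 (SE 0.58, adjusted p = 0.0867) and by -2.26 with Cpd2 (SE 0.58, adjusted p = 0.274). Both passed without vehicle replicate 1 (adjusted p = 0.00771 with Cpd6 and 0.0203 with Cpd2) and with array weights (0.00854 and 0.0457).

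In Study 1, Fgf5 had a lowest value, median and highest value of 2.83, 3.47 and 5.47 in Cpd2 mice, 3.79, 4.67 and 7.29 in Cpd1 mice, and 2.48, 3.37 and 8.72 in vehicle mice. All 3 groups overlapped. The Cpd1 difference from vehicle was 0.93 (SE 0.67, adjusted p = 0.576), the only positive Fgf5 difference of the 6 compound groups. Mean Fgf5 ran from 5.55 ± 1.66 (SD, n = 4) in the vehicle mice of Study 2 and 5.35 ± 1.74 (n = 4) in those of Study 4 to 3.07 ± 0.31 (n = 4) and 2.84 ± 0.13 (n = 4) in the Cpd6 mice of the same studies.

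Fgf18, the telogen fibroblast growth factor, passed the test in no comparison. In Study 4 it had 6.25, 7.66, 7.21 and 7.25 in Cpd6 mice, 6.43, 6.41, 7.15 and 7.04 in Cpd18 mice, and 8.04, 7.56, 6.86 and 7.47 in vehicle mice. The groups overlapped. Cpd18 gave -0.73 (SE 0.29, adjusted p = 0.543), the only member at an unadjusted p under 0.05 with Cpd18. In Study 2, Cpd2 gave -0.70 (SE 0.37, adjusted p = 0.752) and Cpd6 -0.50 (SE 0.37, adjusted p = 0.674). In Study 1, Fgf18 had a lowest value, median and highest value of 7.15, 7.58 and 8.31 in Cpd2 mice and of 6.27, 7.52 and 7.95 in vehicle mice, a difference of 0.34 (SE 0.22, adjusted p = 0.352).

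Bmp4, a BMP ligand of the follicle mesenchyme, varied least between groups. Its group means lay between 9.23 ± 0.19 (SD, n = 8) in vehicle mice of Study 1 and 9.60 ± 0.27 (n = 4) in Cpd18 mice. In Study 1 it had a lowest value, median and highest value of 9.18, 9.41 and 9.67 in Cpd2 mice, 9.27, 9.54 and 10.01 in Cpd1 mice, and 8.85, 9.23 and 9.48 in vehicle mice. The differences from vehicle were 0.20 with Cpd2 (SE 0.10, adjusted p = 0.206) and 0.32 with Cpd1 (SE 0.10, adjusted p = 0.163). With array weights the Cpd2 difference passed (0.28, adjusted p = 0.0335).

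Lgr5, the stem cell receptor, was on opposite sides of vehicle in different studies. In Study 1 it had a lowest value, median and highest value of 8.68, 8.99 and 9.46 in Cpd2 mice, 8.72, 9.11 and 9.41 in Cpd1 mice, and 8.45, 8.61 and 9.15 in vehicle mice. All Cpd2 and Cpd1 mice were above the vehicle median, and the groups overlapped. The differences were 0.33 with Cpd2 (SE 0.12, adjusted p = 0.0674) and 0.42 with Cpd1 (SE 0.12, adjusted p = 0.124). Cpd1 mice also stood apart on 14 Hox and Tbx genes of body position, with a mean of 7.35 to 7.69, against 6.56 to 7.08 in vehicle mice. Of these, 4 were higher, among them Hoxc10 (3.18), Hoxa10 (1.60) and Hoxa9 (1.27). Their part in the Cpd1 values was not tested. The Cpd2 difference passed without Cpd2 replicate 8, vehicle replicate 1 or vehicle replicate 4 (adjusted p of 0.0267 to 0.0452) and with array weights (0.0115).

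In Study 4, Lgr5 was at 7.54, 8.09, 7.75 and 8.43 in Cpd6 mice, 8.17, 8.50, 7.98 and 8.19 in Cpd18 mice, and 8.50, 8.58, 8.08 and 8.72 in vehicle mice. In Study 2 it was at 8.56, 8.23, 8.50 and 8.32 in Cpd6 mice, 8.04, 8.35, 8.54 and 8.31 in Cpd2 mice, and 8.40, 9.05, 8.71 and 8.82 in vehicle mice. Treated and vehicle mice overlapped in both studies. The differences were -0.52 (SE 0.18, adjusted p = 0.0792) with Cpd6 in Study 4, -0.34 (SE 0.15, adjusted p = 0.365) with Cpd6 in Study 2 and -0.43 (SE 0.15, adjusted p = 0.448) with Cpd2 in Study 2. The Study 4 difference passed without Cpd6 replicate 4 (-0.67, adjusted p = 0.0402) and without vehicle replicate 3 (-0.65, 0.0439).

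Dlx3, a homeobox factor of matrix, shaft and inner root sheath, had 8.99, 9.28, 9.11 and 9.27 in Cpd6 mice of Study 4, 9.26, 10.35, 9.82 and 10.40 in Cpd18 mice, and 10.47, 9.03, 9.95 and 10.76 in vehicle mice. Vehicle replicate 2 was again within the Cpd6 range. The Cpd6 difference was -0.89 (SE 0.30, adjusted p = 0.0730). Without vehicle replicate 2 it was -1.23 (adjusted p = 0.00558).

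In Study 2, Dlx3 had 9.13, 9.43, 9.43 and 9.24 in Cpd6 mice, 8.81, 8.90, 8.69 and 9.61 in Cpd2 mice, and 9.11, 10.001, 10.45 and 11.67 in vehicle mice. The lowest vehicle mouse was replicate 1, as for Shh and Fgf5. The differences were -1.001 with Cpd6 (SE 0.38, adjusted p = 0.293) and -1.30 with Cpd2 (SE 0.38, adjusted p = 0.375). Without that mouse they were -1.40 (adjusted p = 0.0289) and -1.71 (adjusted p = 0.0169). In Study 1 the Cpd2 range of 8.77 to 10.07, with a median of 9.03, lay inside the vehicle range of 7.95 to 11.80, with a median of 8.42.

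Foxn1, the factor lost in nude mice, had 4.81, 5.05, 5.37 and 4.79 in Cpd6 mice of Study 4, 5.33, 5.75, 5.56 and 6.18 in Cpd18 mice, and 6.43, 4.92, 5.49 and 6.66 in vehicle mice. Again only vehicle replicate 2 reached into the Cpd6 range. The Cpd6 difference of -0.87 (SE 0.31) had an adjusted p of 0.0845, and of 0.0118 without vehicle replicate 2. In Study 2, Foxn1 was at -0.86 relative to vehicle with either compound (SE 0.38 each, adjusted p = 0.394 with Cpd6 and 0.642 with Cpd2).

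Lef1, the Wnt effector of the hair precortex, was low throughout, between 2.97 and 6.27 in the 48 mice. In Study 4 it had 4.12, 4.30, 4.18 and 4.32 in Cpd6 mice, 3.99, 5.72, 4.27 and 5.11 in Cpd18 mice, and 5.62, 3.93, 4.36 and 6.27 in vehicle mice. Cpd6 mice lay in a range of 0.20 inside the vehicle range. The difference was -0.81 (SE 0.44, adjusted p = 0.246), and Lef1 passed the test in no comparison and in no alternative run here.

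Gata3, a factor of the inner root sheath and epidermis, had a lowest value of 10.95, a median of 11.15 and a highest of 11.33 in Cpd2 mice of Study 1, 10.39, 10.94 and 11.34 in Cpd1 mice, and 10.48, 10.75 and 11.05 in vehicle mice. Only vehicle replicates 4 and 8 lay within the Cpd2 range. Gata3 was higher with Cpd2 by 0.39 (SE 0.10, 95% interval 0.19 to 0.59, adjusted p = 0.00841), 1.31-fold. The call held in all 16 omissions of 1 mouse (0.34 to 0.43) and with the methods' t-test. When Cpd2 replicates 3, 7 and 4, which had the lowest muscle marker means (6.01, 6.98 and 8.08), were left out, the difference was 0.39 and the adjusted p 0.0537, in a fit with 5 Cpd2 mice.

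In the same comparison 6 of 9 differentiated keratinocyte markers were higher with Cpd2, among them Lor (0.63), Dsc1 (0.57), Krt1 (0.49) and Krt10 (0.38). Their mean was 10.96 to 11.20 in Cpd2 mice and 10.65 to 11.17 in vehicle mice. Of the sebaceous gland markers, 4 of 9 were lower. The part of these differences and of the muscle difference in the Gata3 result was not tested. Mean Gata3 was 11.79 ± 0.09 (SD, n = 4), 11.78 ± 0.15 and 11.66 ± 0.10 in Cpd6, Cpd18 and vehicle mice of Study 4, and 10.77 ± 0.19 (n = 8) in vehicle mice of Study 1, where the study and its processing cannot be told apart.

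**Figure D2:**
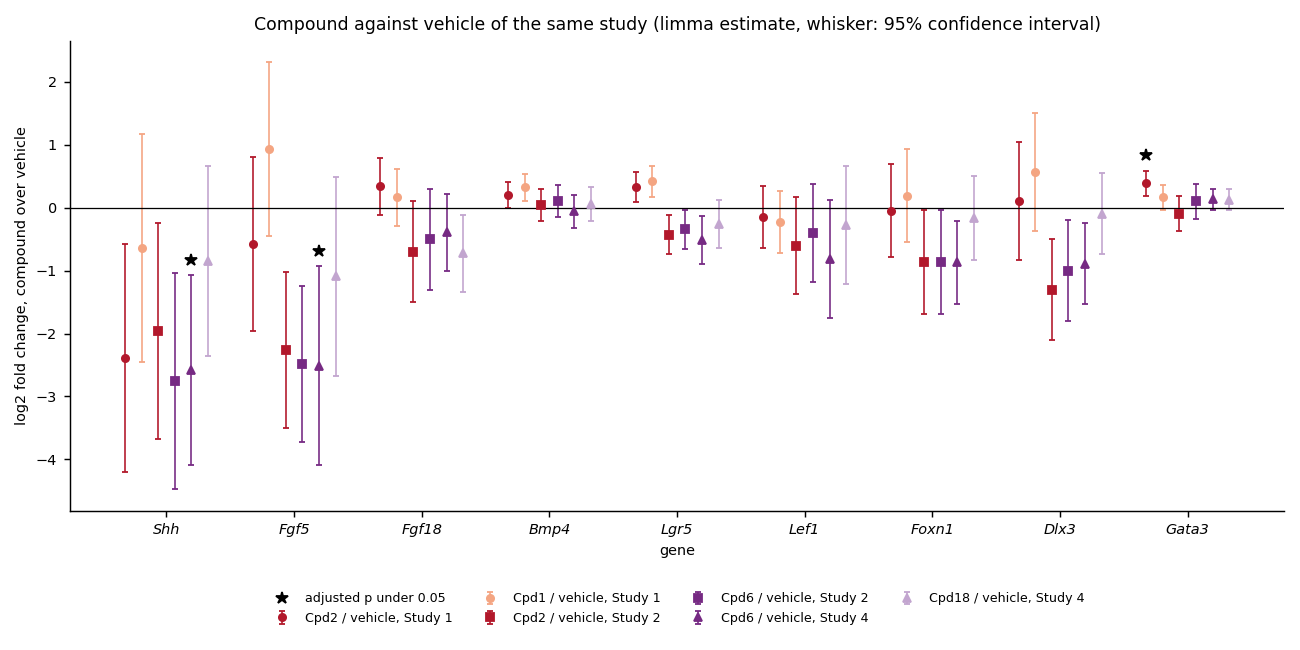
Log2 fold change of each member (vertical axis) for each compound over vehicle of its study, with the 95% confidence interval as whisker and a star at an adjusted p under 0.05. The 3 stars stand at Shh (-2.58) and Fgf5 (-2.51) for Cpd6 in Study 4 and at Gata3 (0.39) for Cpd2 in Study 1.

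Hair shaft keratin genes, which hold no member, moved in the same mice. With Cpd6 in Study 4, 2 of 7 were lower, Krt86 (-4.71) and Krt35 (-4.22), and the median of the 7 was -4.71. Their mean was 3.36 to 4.74 in Cpd6 mice and 3.65 to 9.19 in vehicle mice, with vehicle replicate 2 the lowest of the vehicle mice. In Study 2 their median was -4.33 with Cpd6 and -3.42 with Cpd2, with 0 of 7 called. In Study 1 it was -0.23 with Cpd2 and 1.87 with Cpd1, also with 0 called.

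Mice with a keratin mean above 5.5 numbered 0 of 4 with Cpd6 and 3 of 4 with vehicle in both Study 2 and Study 4. They numbered 1 of 4 with Cpd2 in Study 2 and 3 of 4 with Cpd18. In Study 1 they numbered 2 of 8 with Cpd2, 6 of 8 with Cpd1 and 2 of 8 with vehicle. Melanocyte markers fell too with Cpd6 in Study 4, in 5 of 7 genes (mean 6.05 to 6.48 in Cpd6 mice and 6.59 to 8.45 in vehicle mice), as did 6 of 7 macrophage markers (7.30 to 7.56 in Cpd6 mice and 7.98 to 8.33 in vehicle mice) and 4 of 9 sebaceous gland markers (8.03 to 8.49 in Cpd6 mice and 8.77 to 8.90 in vehicle mice). With Cpd18, where Shh and Fgf5 were not called, limma called 0 macrophage and 0 melanocyte markers, but 6 of 7 and 5 of 7 had an unadjusted p under 0.05, with medians of -0.72 and -0.79. The macrophage mean was 7.30 to 7.82 in Cpd18 mice. The part of these markers in the Shh and Fgf5 results was not tested.

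Between compounds within a study, 3 pairs were compared and no member passed the test. Cpd2 against Cpd1 in Study 1 called 0 of 9 members, against 17.2% of all probesets, with Fgf5 at -1.52 (SE 0.67, 95% interval -2.90 to -0.14, adjusted p = 0.121) and Gata3 at 0.22 (SE 0.10, adjusted p = 0.119). These were the 2 members at an unadjusted p under 0.05. Shh was at -1.74 (SE 0.88, adjusted p = 0.177), and passed without Cpd2 replicate 2 (-2.36, adjusted p = 0.0468). Gata3 passed without Cpd1 replicate 7 (0.28, adjusted p = 0.0438). In the same pair 15 of 15 muscle markers and 5 of 14 body position genes were lower (Hoxc10 -3.28, Hoxa9 -1.75) and 7 of 9 differentiated keratinocyte markers higher. Their part in the values of the members was not tested.

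Cpd6 against Cpd18 in Study 4, 2 compounds the study places in one structural series, called 0 of 9 members against 0.49% of probesets. Shh was at -1.73 (95% interval -3.24 to -0.22, adjusted p = 0.333), Dlx3 at -0.79 (-1.44 to -0.15, adjusted p = 0.309) and Foxn1 at -0.70 (-1.37 to -0.04, adjusted p = 0.374), the 3 members at an unadjusted p under 0.05. Cpd2 against Cpd6 in Study 2, compounds of different series, called 0 of 9 members, 0 at an unadjusted p under 0.05, and 0% of probesets. There Shh was at 0.79 (95% interval -0.93 to 2.51) and Fgf5 at 0.22 (-1.02 to 1.46), intervals that span differences of over 1 unit. The methods' t-test called 0 members in all 3 pairs.

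The effect of a compound was compared between studies in 1 fit over 48 arrays. For Cpd2, the difference of its Study 1 effect from its Study 2 effect called 0 of 9 members, against 0.726% of probesets, with 4 members at an unadjusted p under 0.05. Lgr5 had the lowest adjusted p, with a difference of 0.76 (SE 0.21, 95% interval 0.33 to 1.19, adjusted p = 0.0667). Its Cpd2 effect was 0.33 in Study 1 and -0.43 in Study 2. It passed without Study 1 Cpd2 replicate 1, 5 or 8 or vehicle replicate 4 (adjusted p of 0.0242 to 0.0489) and with array weights (0.0235). In this contrast 0 of 15 skeletal muscle markers were called, but all 15 had an unadjusted limma p under 0.05 (median -2.50). The hair shaft keratin median was 2.98, with 0 of 7 called. The part of these markers in the values of the members was not tested.

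Gata3 differed between the studies by 0.48 (SE 0.16, adjusted p = 0.109), Dlx3 by 1.41 (SE 0.69, adjusted p = 0.314) and Fgf18 by 1.04 (SE 0.43, adjusted p = 0.218). Dlx3 passed with array weights (1.97, adjusted p = 0.0268). Gata3 passed without vehicle replicate 4 of Study 1 (adjusted p = 0.0409), without Cpd2 replicate 4 of Study 2 (0.0378) and with array weights (0.0109). For Cpd6, comparing Study 2 with Study 4, 0 of 9 members and 0% of probesets were called, with 0 members at an unadjusted p under 0.05. The lowest adjusted p of a member was 0.952. Shh was at -2.76 in Study 2 and -2.58 in Study 4, and Fgf5 at -2.48 and -2.51, with 95% intervals for the differences of -3.39 to 3.04 and -2.53 to 2.60.

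The pathways around the members were read from lists that hold the members too. Of all probesets, 13.1% were called with Cpd2 and 0.327% with Cpd1 in Study 1. With Cpd6 the share was 0.379% in Study 2 and 10.7% in Study 4. The list counts below are to be read beside these shares, and no list was tested as a set. Of 14 hedgehog pathway genes, Shh included, Cpd6 in Study 4 lowered 1, which was Shh itself, and raised 1. Scube2, which helps release hedgehog ligand, was higher at 0.45 (adjusted p = 0.0286). Cpd2 in Study 1 lowered Hhip alone, a decoy receptor induced by hedgehog signals (-1.08, adjusted p = 0.0450). The list medians were -0.17 in both comparisons. No hedgehog gene was called in the other 4 comparisons with vehicle. In these the list median was -0.33 with Cpd6 and -0.22 with Cpd2 in Study 2, 0.06 with Cpd1 and -0.01 with Cpd18.

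Of 36 Wnt pathway genes, 5 were higher and 1 lower with Cpd2 in Study 1 (list median 0.09), beside 13.1% of all probesets called. The ligands Wnt3 (0.81), Wnt10a (0.73) and Wnt4 (0.38), the Dkk receptor Kremen2 (0.61) and the target Axin2 (0.38) were higher, and the secreted inhibitor Sfrp2 was lower (-0.75). With Cpd6 in Study 4, the receptor Fzd7 (0.32) and the factor Tcf7l2 (0.27) were higher, and Nkd2 (-0.97) and Sfrp1 (-0.69), both inhibitors of the pathway, were lower (list median -0.22). In Study 1 with Cpd1, Wnt10a was higher (0.67) and the R-spondin Rspo2, a ligand of Lgr5, lower (-1.40). With Cpd6 in Study 2, Dkk3 alone was called, lower (-0.61). With Cpd2 in Study 2 and with Cpd18, 0 were called.

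Of 25 BMP pathway genes, Cpd6 in Study 4 lowered 2 and raised 0, namely the pseudoreceptor Bambi (-1.91, adjusted p = 0.0243) and the target Id2 (-0.49, adjusted p = 0.0163). The other 5 comparisons with vehicle called 0. Of 19 FGF pathway genes, Cpd2 in Study 1 raised 4, namely the receptors Fgfr3 (0.58) and Fgfr2 (0.22), the binding protein Fgfbp1 (0.30) and the feedback inhibitor Spry1 (0.26), and lowered the feedback inhibitor Spry4 (-0.72). Cpd6 in Study 4 lowered Fgf5 and the dermal papilla ligand Fgf7 (-0.57).

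Of 21 follicle transcription factors, a list that holds members, Cpd2 in Study 1 raised 4, namely Dlx5 (0.63), Hr (0.51), Gata3 and Egr2 (0.27), and lowered Trps1 (-0.61). Cpd6 in Study 4 lowered the homeobox genes Dlx2 (-2.46) and Hoxc13 (-2.17), which acts in shaft keratin expression, and raised Egr2 (0.37). Cpd6 in Study 2 lowered Msx1 (-1.49, adjusted p = 0.0381), a relative of Msx2. Of 14 dermal papilla markers, 4 were lower and 0 higher with Cpd6 in Study 4: Corin (-1.22), Vcan (-0.62), Alpl (-0.59) and Fgf7. In Study 1, Cpd2 lowered Alpl alone of this list (-1.35, limma adjusted p = 1.62e-07), and Cpd1 lowered Rspo2 alone (-1.40). Of 12 follicle stem cell markers, Nfatc1 was higher (0.57) and Cd34 lower (-0.38) with Cpd6 in Study 4. Of 11 dividing cell markers, limma called 0 in any comparison with vehicle, with 5 at an unadjusted p under 0.05 for Cpd6 in Study 4.

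Whether the members varied with hair shaft production was read from mice of 1 group. Each member and the mean of the 7 hair shaft keratins were taken as deviations from their group means over 48 mice, and correlated with a 2-sided permutation test within groups, adjusted over the 9 members. Dlx3 (r = 0.90, rho = 0.92), Fgf5 (r = 0.88, rho = 0.81), Foxn1 (r = 0.80, rho = 0.72), Shh (r = 0.71, rho = 0.71) and Lef1 (r = 0.68, rho = 0.59) rose with the keratins. The permutation p was 1e-05, the smallest the permutations can give, for each of these but Lef1 (p = 6e-05, adjusted p = 0.000108). Bmp4 (r = 0.36, rho = 0.34) and Lgr5 (r = 0.34, rho = 0.40) followed at an adjusted permutation p of 0.029 each.

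Fgf18 was the only member that ran against the keratins (r = -0.44, rho = -0.35, adjusted permutation p = 0.0107), and Gata3 did not pass (r = 0.26, rho = 0.31, adjusted permutation p = 0.0917). Without the 2 mice farthest on the keratin axis, vehicle replicate 4 of Study 1 and vehicle replicate 2 of Study 4, r was 0.86 for Dlx3, 0.81 for Fgf5, 0.70 for Foxn1, 0.68 for Shh and 0.53 for Lef1. Fgf18 (r = -0.35, adjusted permutation p = 0.0585) and Bmp4 (r = 0.37, adjusted permutation p = 0.0545) no longer passed, with r for Bmp4 no smaller than over all mice. Within Studies 1, 2 and 4, r for Dlx3 was 0.91, 0.94 and 0.91, for Fgf5 0.85, 0.89 and 0.95 and for Foxn1 0.81, 0.80 and 0.76, and all 9 values of r passed. By rank, Foxn1 passed in Study 1 only (adjusted permutation p of 0.0859 and 0.153 in Studies 2 and 4). For Shh it was 0.72, 0.87 and 0.55, and did not pass in Study 4 (adjusted permutation p = 0.294), nor by rank in Study 2 (0.0734). For Lef1 it was 0.68, 0.69 and 0.72, and passed in Study 1 only (adjusted permutation p of 0.164 and 0.121 in Studies 2 and 4).

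For Fgf18 the within-study r was -0.73, -0.49 and 0.25, so the negative relation was not seen in Study 4. For Bmp4 it was 0.37, 0.70 and 0.08 and for Lgr5 0.47, 0.38 and 0.08, with a pass for Lgr5 in Study 1 only (adjusted permutation p = 0.0321).

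**Figure D3:**
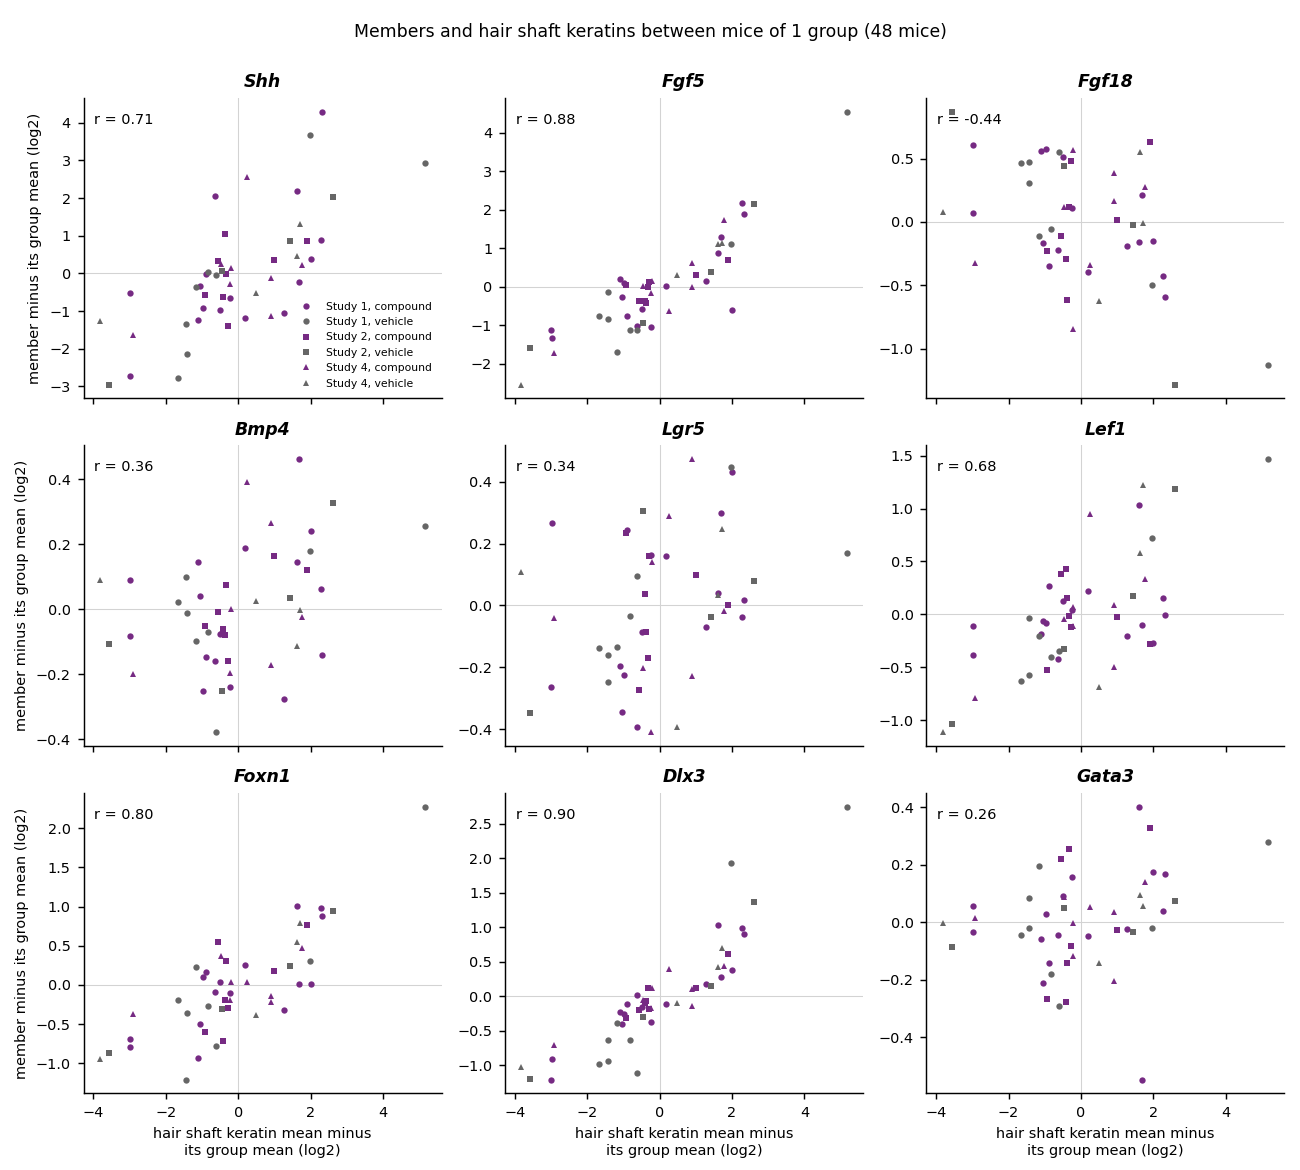
Deviation of each member from its group mean (vertical axes) against that of the hair shaft keratin mean (horizontal axes), both in log2 units, with 1 point per mouse and the symbol giving the study. Dlx3 and Fgf5 follow the keratins closely (r = 0.90 and 0.88), and Fgf18 slopes downward (r = -0.44).

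The keratin mean lay between 3.34 and 5.00 in 28 mice and between 5.70 and 10.23 in 20 mice. The 2 ranges were looked at after the data were seen, on levels, not deviations, so differences between groups and studies enter r. The permutation here ran over all mice of a range, regardless of group and study. Among the 20 mice, r with the keratin mean was 0.90 for Fgf5, 0.81 for Dlx3, 0.74 for Foxn1, 0.63 for Lef1 and 0.40 for Shh (adjusted permutation p of 9e-05, 9e-05, 0.00048, 0.00711 and 0.148). Among the 28 mice, r of the 9 members lay between -0.13 and 0.20, and none passed. Their keratin means were close to the low end of the scale, with Fgf5 at 2.48 to 4.02 and Lef1 at 2.97 to 4.32. So narrow and low a range leaves little room for r, and no conclusion is drawn from it.

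Among the members themselves, 36 pairs were correlated over the 48 mice as deviations from the group means. At an adjusted permutation p under 0.05, 21 pairs were positive, 5 were negative and 10 did not pass. Dlx3 with Fgf5 (r = 0.86), Foxn1 with Dlx3 (r = 0.84), Shh with Dlx3 (r = 0.80) and Foxn1 with Fgf5 (r = 0.78) were the highest, each at the smallest p the permutations can give. All 5 negative pairs held Fgf18, with Dlx3 (r = -0.55), Shh (-0.54), Lef1 (-0.44), Foxn1 (-0.44) and Fgf5 (-0.39). By rank, only the pairs with Dlx3 (rho = -0.39) and Shh (rho = -0.42) passed, while Lef1, Foxn1 and Fgf5 had an adjusted permutation p of 0.0666, 0.124 and 0.279. In Study 4 the 5 pairs had r of 0.02 to 0.35. Gata3 passed with Foxn1 at the highest of its values (r = 0.56).

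**Figure D4:**
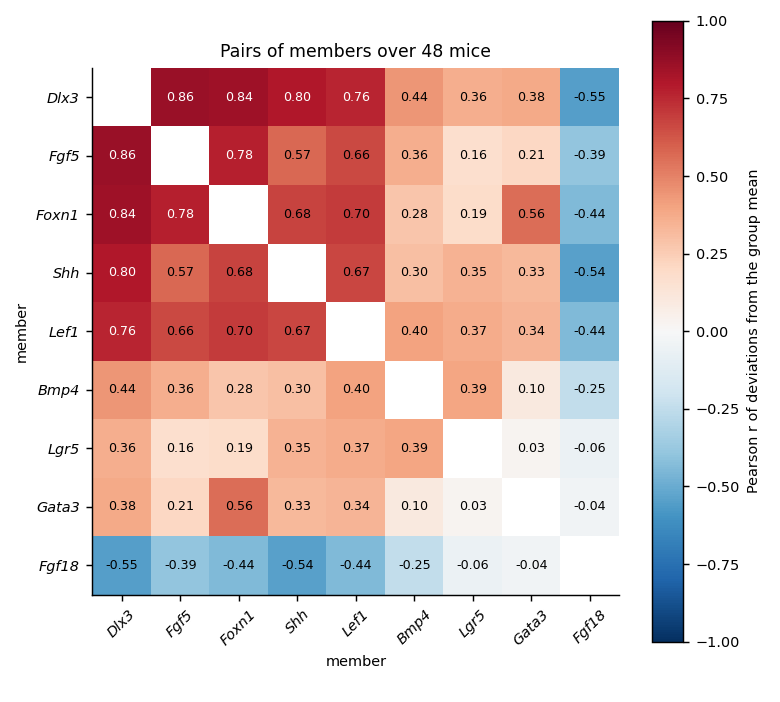
Pearson r between pairs of members over 48 mice (both axes list the 9 members), from deviations from the group mean. Dlx3, Fgf5, Foxn1, Shh and Lef1 form a block with r of 0.57 to 0.86, and the last line and column, Fgf18, are below 0 throughout.

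The genes most like each member were named by the highest within-group r over the 48 mice among 15311 other genes, as a description that shares the arrays and the hair status of the mice. They were Mycn (0.92) and Col11a1 (0.89) for Shh, Ly6g6d and Krt18 (0.92 each) for Fgf5, Il31ra and Wfdc3 (0.79 each) for Fgf18, and Bpnt1 and Kctd20 (0.65 each) for Bmp4. For the receptor Lgr5 they were Champ1 (0.68) and Ccdc9 (0.67). For the transcription factors they were Dlx1 and Hoxc13 (0.95 each) for Dlx3, Cpm (0.91) and Sp6 (0.88) for Foxn1, Dclk3 (0.86) and Dlx4 (0.84) for Lef1, and Lrig3 (0.79) and Evpl (0.77) for Gata3.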

How the data were processed

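Skin RNA of 48 mice was hybridised to a custom Affymetrix array, with 1 array per mouse. The authors made the deposited intensity values with RMA, a method of background correction, normalisation and probe summary; its version is not given in the sources used here. The table holds linear intensities of 1.60 to 13570 for 38385 probesets, of which 24478 name 1 gene, 65 several and 13842 none. Groups were taken from the sample titles. Here the base 2 logarithm was taken and the 25% of probesets with the lowest mean were left out. limma 3.58.1 in R 4.3.3 was fitted per study with a mean per group, an intensity trend in the empirical Bayes step and Benjamini-Hochberg adjustment. A t-test per probeset, standing in for the one-way ANOVA of the methods, is called the methods' t-test. Correlations used 100000 permutations within groups, except in the 2 keratin ranges, where mice were permuted regardless of group and study. The fit was tested on simulated data. The number of arrays limits the precision.

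All members were named in every comparison, with the 2 most alike genes per member, and called genes from each pathway list in the comparison described. The plan was up to 4 such genes per list, and more were named for some lists. A 95% interval is given for a difference; differences from vehicle smaller than their standard error are given by counts, ranges or intervals. The members and the 17 gene lists were chosen with earlier results of these data known. The alternatives were no filter, a 50th percentile filter, equal array medians, quantile normalization, array weights, a replicate block, the methods' t-test, 1 fit over all arrays, the methods' threshold (unadjusted p under 0.01 and a fold over 1.2), leaving out each mouse, leaving out the 3 Cpd2 mice with least muscle RNA, and inner root sheath genes for the keratins. The t-test at the methods' threshold and the 2 keratin ranges were added after seeing the data. Python 3.11.15 drew the figures. Upstream sequences came from RefSeq on GRCm38.p6. Histology and compound levels were not used here.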

Additional observations from a re-analysis of the deposited data

Results flagged for a closer look

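In 81 combinations of a member and a group, 6 held 1 mouse far from the others of its group by Dixon's test, where chance gives about 1 in 20. All 6 lay in Study 1. Cpd2 replicate 2 had Shh at 8.11, with the next highest Cpd2 mouse at 4.20, and Fgf5 at 5.47, with the next at 3.79. Its hair shaft keratin mean was 7.11, while Cpd2 replicate 7, with a keratin mean of 6.79, had Shh at 4.20 and Fgf5 at 2.97. Vehicle replicate 4 had Fgf5 at 8.72, with the next vehicle mouse at 5.28, and Foxn1 at 6.57, with the next at 4.60, and its keratin mean was 10.22. Cpd1 replicate 7 had Lef1 at 4.62, with the next Cpd1 mouse at 3.75, and a keratin mean of 7.95. Cpd1 replicates 3 and 6 had higher keratin means (8.61 and 8.02) with Lef1 at 3.75 and 3.49. Cpd1 replicate 6 had Gata3 at 10.39, below the other Cpd1 mice, the nearest of which was at 10.89. No member had an effect of Cpd2 or Cpd6 that differed between studies at an adjusted p under 0.05.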

How the results depend on the processing

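Single member differences larger than their standard error (56) and the 9 correlations with the keratins kept their direction under every alternative run over all groups. Of 1193 alternative values of the 56 differences, 1129 stayed on the same side of the threshold, 45 passed newly and 19 no longer passed. Smaller differences changed sign 73 times, at a value of at most 0.58, and were called in none of these. With Cpd6 in Study 4, where 2 members were called, the count was 1 with the 50th percentile filter (which leaves out Fgf5, Foxn1 and Lef1), 4 with array weights (Foxn1 and Dlx3 added), 0 in 1 fit over all arrays and with the methods' t-test, 1 with that test at the methods' threshold, and 0 to 4 over the omissions of 1 mouse. Of all probesets, 3090 were called in the main fit there, 4361 with array weights, 943 in 1 fit and 1643 with the methods' t-test. With Cpd2 in Study 1, where 1 member was called, the count was 3 with array weights (Lgr5 and Bmp4 added) and 2 in 1 fit (Shh added). It was 0 when Cpd2 replicates 3, 4 and 7, with least muscle RNA, were left out, and 1 to 2 over the omissions. Of all probesets, 3769 were called in the main fit there, 5998 with array weights, 5006 in 1 fit and 1339 without those 3 mice. Where 0 members were called, array weights gave 1 for Cpd2 and 2 for Cpd6 in Study 2. They gave 1 for Cpd2 against Cpd1 and 3 for the Cpd2 effect between studies. Of all probesets, array weights called 89, 1081, 5706 and 1931 in these 4 comparisons, in that order. The methods' threshold gave 2 for Cpd1, 3 for Cpd2 in Study 2 and 2 for Cpd6 in Study 2. Of all 28789 probesets, it called 1130, 624 and 1243 in the same order. The t-test at that threshold gave 1 for Cpd1, beside 751 of all probesets. Omissions gave 0 to 3 in both comparisons with vehicle in Study 2, 0 to 1 for Cpd2 against Cpd1 and 0 to 2 for the Cpd2 effect between studies, and 0 throughout for Cpd1, Cpd18, Cpd6 against Cpd18, Cpd2 against Cpd6 and the Cpd6 effect between studies. The 3 in Study 2 came without vehicle replicate 1, with 257 of all probesets called for Cpd2 and 598 for Cpd6. The cause of these changes was not tested.

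Mice with the same replicate number did not pair steadily (same-number correlations above 0.1 in 0 to 3 pairs of a comparison). The 3 were out of 4 pairs for Cpd6 against Cpd18 in Study 4, with correlations of 0.046 to 0.251. For Cpd18 against vehicle they ran from -0.43 to 0.38. With the replicate number as a block, 3 members were called with Cpd6 in Study 4 (Lgr5 added, adjusted p = 0.0310), and no other call of a member changed.

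Of the members, 8 passed against the keratins, 7 with inner root sheath genes (Bmp4 lost, adjusted p = 0.0577), 6 without the 2 farthest mice, and 5 to 9 over omissions. The 5 were left without vehicle replicate 4 of Study 1, where Fgf18, Lgr5 and Bmp4 were lost. Within the 2 keratin ranges, 4 passed above and 0 under 5.5, where the keratin means were close together and low. Each member had 1 probeset, so the mean over probesets is the same value and was not run. Groups of 4 and intensities near 2.93 limit what can be seen for Lef1, Fgf5 and Foxn1. Such intensities also limit it for Shh in the Cpd2 mice of Study 1.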

Other observations

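Levels of some members in vehicle mice were apart between studies, while those of others were close. Mean Gata3 was 10.77 in Study 1, 11.20 in Study 2 and 11.66 in Study 4, with no overlap between the vehicle mice of the 3 studies. How many of all probesets were apart in this way was not counted. Mean Shh was 6.20, 7.27 and 7.20 and mean Foxn1 4.30, 5.05 and 5.87 in the same order, with overlap, and mean Fgf18 was 7.40, 7.39 and 7.48. The study and its processing cannot be told apart, and no test was made.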
